A study of Mus musculus with 18 samples.

Results

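The 10 genes described here encode ligands and receptors of the epidermal growth factor (EGF) receptor family: the ligands Areg, Ereg, Hbegf, Tgfa, Nrg1 and Egf, and the receptors Egfr, Erbb2, Erbb3 and Erbb4. They were chosen by name, as 6 ligands and 4 receptors among the 31053 features of the count tables, and each symbol matched 1 feature. Their UMI counts (unique molecular identifiers, each standing for 1 captured transcript) were followed in the epithelial lineages of the mouse mammary gland, to ask which lineage holds the transcripts of which ligand, which lineage holds the receptors, and how puberty and pregnancy differ.

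Single cells were profiled on the 10x Chromium platform in 17 mammary libraries and 1 library of embryonic skin, which was used for no comparison. The C57BL/6 libraries came from embryos at E18.5 (rudiments located with an Lgr5-GFP reporter), day 5 after birth, pre-puberty (2.5 weeks), puberty (5 weeks) and the adult virgin (10 weeks). Puberty was 1 library of terminal end buds (TEBs) and 1 of ducts, dissected from Ecadherin-GFP females. The FVB/NJ libraries came from adult virgins of 10 weeks (A10, P7 and D12), day 12.5 of pregnancy (H and G), day 18.5 of pregnancy (F4 and B4), day 10 of lactation (F11 and D6) and post-involution (3 weeks after weaning, where the label reads 3 weeks post birth). A further adult library, also of 10 weeks, came from the SWISS strain. Cells were sorted as lineage-negative (Ter119-CD31-CD45-) epithelium with CD24 and CD29, mice were pooled for each library, and adults were not staged for estrus. All the pubertal libraries were C57BL/6 and all the pregnancy libraries FVB/NJ, so strain and stage cannot be told apart between them.

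Of 140187 barcodes in the mammary libraries, 123574 passed the filters. Library totals ran from 9920346 to 93234616 UMIs and the median per cell from 2498 UMIs in P7 to 21609 in the TEB library. Any pair of libraries shared at most 239 cell barcodes, and no pair shared more than 2.41% of the smaller library. P7 has barcodes of 14 bases and the others of 16, so P7 could share none with them. Cells fell into basal, luminal progenitor or alveolar (LP/alveolar) and mature luminal, hormone-sensing (ML) classes by clustering on other genes, with the 10 members and their pathway genes left out. In the FVB/NJ libraries the LP/alveolar class joined a cluster of 28505 cells with one of 4813. The part of their mix in changes of this class with stage was not tested. Because the clustered cells are those compared, a difference between classes is not a test on independently sorted cells. Levels are given in CPM, the counts scaled to a fixed total of UMIs outside 8 milk genes, since milk transcripts took 77.1% and 78.2% of the LP/alveolar UMIs in lactation. The ML class held between 1017 and 4944 cells in the adult libraries, between 180 and 383 in pregnancy and 294 and 204 in lactation, but only 42 at E18.5, where its summed ML markers reached 455 CPM against 4292 to 8976 CPM in the adults. The E18.5 class is therefore ML by clustering more than by its markers. The E18.5 LP/alveolar class also had more basal markers (1254 CPM in sum) than LP/alveolar markers (1032 CPM), and 1046 of its 2725 cells passed a marker gate, which keeps cells with more UMIs of their own class's markers than of either other class's. Counts over the 17 libraries include both classes. In the ML class the summed LP/alveolar markers were 196 to 994 CPM in the adults, 2520 to 6715 CPM in pregnancy and 11842 to 13252 CPM in lactation, and the part of this difference in the results below was not tested.

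EGF family ligands are made as membrane-bound precursors and released by metalloproteases such as Adam17, which sheds Areg. They bind receptors that pair with each other: Egfr takes Areg, Hbegf, Tgfa, Ereg and Egf, while Erbb3 and Erbb4 take the neuregulins. Erbb2 has no known ligand and works as a partner, and Erbb3 has little kinase activity of its own. In the mammary gland, amphiregulin (Areg) is known as an estrogen-induced factor required for ductal outgrowth at puberty, Erbb4 for its part in alveolar differentiation and lactation, and Egf as a component of milk.

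Areg and Erbb4 are shown by sequence. Among the 10 members, they were the ligand and the receptor that moved most in ML cells between the adult and the pregnant gland. They moved in opposite directions. The promoters of 6 of the 10 members are listed in the RefSeq table for GRCm38.p6, and were searched on both strands for the cyclic AMP response element TGACGTCA, a palindrome through which CREB acts. It was found in 1 of these 6, the Areg promoter, and in 508 of all 32851 promoters listed (1.55%). A match is only a description of the letters. The 250 bases before the start of Areg (chr5:91139349-91139598, plus strand, the element in capitals, its first base 61 bases before the start) and of Erbb4 (chr1:69108060-69108309, minus strand, no match in this window) read, 5′ to 3′:
Areg: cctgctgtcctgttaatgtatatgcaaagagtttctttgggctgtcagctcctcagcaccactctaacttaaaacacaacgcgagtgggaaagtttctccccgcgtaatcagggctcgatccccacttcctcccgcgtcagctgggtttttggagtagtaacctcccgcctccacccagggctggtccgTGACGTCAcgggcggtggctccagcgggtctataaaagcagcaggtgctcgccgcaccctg
Erbb4: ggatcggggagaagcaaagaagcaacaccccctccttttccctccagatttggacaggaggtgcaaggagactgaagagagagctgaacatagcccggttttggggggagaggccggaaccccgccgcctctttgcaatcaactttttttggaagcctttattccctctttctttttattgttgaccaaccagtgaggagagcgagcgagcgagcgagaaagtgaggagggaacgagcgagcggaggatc

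Areg (ENSMUSG00000029378, chr5:91139599-91148432) was highest in the ML class in 17 of 17 libraries. In the adult, its ML level was 2898, 2935 and 1482 CPM in the FVB/NJ libraries A10, P7 and D12, 2393 CPM in C57BL/6 and 3293 CPM in SWISS. The TEB library, at 2712 CPM, and the duct library, at 1773 CPM, lay inside this adult range. Before puberty the ML level was 252 CPM at E18.5, 91.1 CPM on postnatal day 5 and 36.0 CPM at pre-puberty, each below every pubertal and adult library. In pregnancy it was 562 and 579 CPM at day 12.5 and 32.8 and 53.8 CPM at day 18.5. In lactation the libraries F11 and D6 had 357 and 53.9 CPM, and the post-involution library had 368 CPM. No library of pregnancy, lactation or post-involution reached the lowest adult value.

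**Figure D1:**
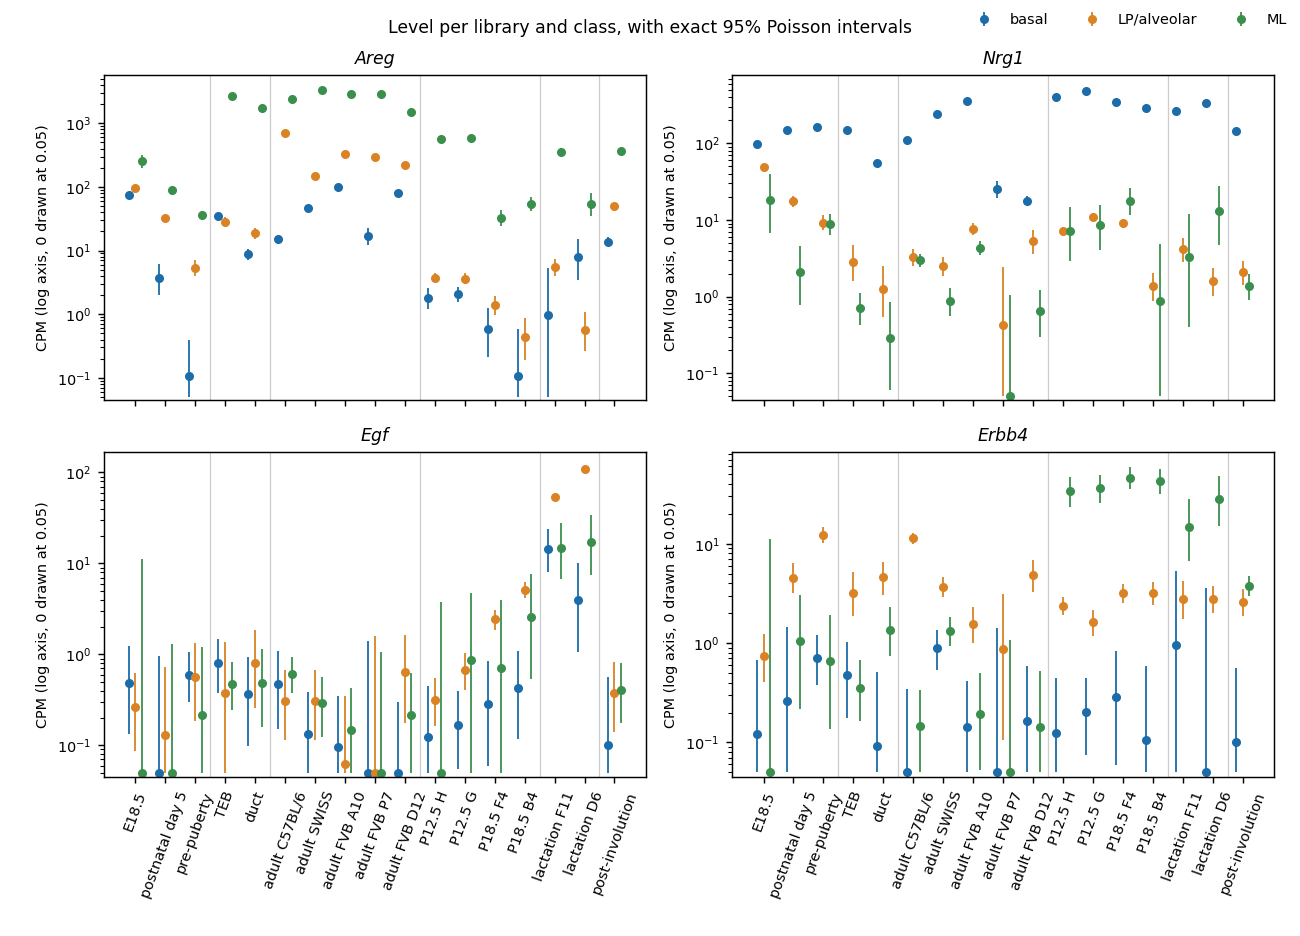
Level of Areg, Nrg1, Erbb4 and Egf in each of the 17 mammary libraries (x axis, in order of stage) on a logarithmic scale in CPM outside the milk genes (y axis), with 1 point for each of the basal, LP/alveolar and ML classes and exact Poisson intervals of the counts. Areg in ML cells lay between 1482 and 3293 CPM in the adult libraries and between 32.8 and 579 CPM in pregnancy, while Erbb4 in ML cells rose to between 33.8 and 46.3 CPM in pregnancy.

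Lower Areg counts in pregnancy were called in every epithelial class, though free RNA limits how the LP/alveolar and basal counts can be read. ML cells had 2439 ± 829 CPM (SD, n = 3) in the FVB/NJ adult and 307 ± 305 CPM (SD, n = 4) in pregnancy, a log2 fold change of -4.14 (SE 0.64, adjusted p = 0.00161, edgeR quasi-likelihood test with Benjamini-Hochberg adjustment). The fitted value gives equal weight to both days of pregnancy on the log scale (means of 570 CPM at day 12.5 and 43.3 CPM at day 18.5) and is larger than the ratio of the group means, 7.95-fold. LP/alveolar cells had 282 ± 58.0 CPM in the adult and 2.30 ± 1.65 CPM in pregnancy (log2 fold change -7.08, adjusted p = 0.000209), and basal cells 65.7 ± 43.7 and 1.14 ± 0.94 CPM (log2 fold change -6.34, adjusted p = 0.00331). The groups did not overlap in any class, and no library left out in turn ended these calls. In pregnancy, day 18.5 lay below day 12.5 in both pairs of ML libraries, but that difference, which was added after the levels were seen, missed the threshold (log2 difference -3.90, adjusted p = 0.206).

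The LP/alveolar and basal levels of Areg were set beside what free RNA from ML cells could carry. Taking every ML marker transcript in the other classes as free RNA, with Areg beside it in the ML ratio, sets a ceiling. The Areg count was at or below that ceiling in LP/alveolar cells of 14 of 17 libraries and in basal cells of 11 of 17. The adult C57BL/6 library had the highest LP/alveolar level of Areg, 701 CPM, and also the highest ML markers in that class, 3083 CPM in sum against 296 to 819 CPM in the other adults. In this class 2945 of its 3757 cells passed the marker gate. When the adult strains were clustered together, 86.1% of this library's cells kept their class, against 93.5% to 95.5% in FVB/NJ. The part of class assignment in the Areg level was not tested. Areg at or below the ceiling is therefore not read as expression of those lineages. Nor is it read as free RNA alone, since ML marker transcripts that these cells make themselves also raise the ceiling. In the adults basal cells held 0.166% to 4.07% of a library's Areg UMIs and LP/alveolar cells 2.52% to 13.9%. The source of that difference was not tested. In LP/alveolar cells the count was at or below the ceiling in all FVB/NJ adult, pregnancy and lactation libraries (0.0552 to 0.933 of it). In basal cells the same held for all of them but A10 (1.09), F4 (1.05) and D6 (4.34). The calls in these classes are therefore not read as changes of expression within them. With each cell thinned to 1000 UMIs, 59.6% to 86.7% of adult ML cells had an Areg UMI, against 4.88% to 16.4% of adult LP/alveolar cells. At day 18.5 of pregnancy the thinned ML shares were 2.87% in F4 and 6.15% in B4 (unthinned, 8.62% and 17.8%).

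Nrg1 (ENSMUSG00000062991, chr8:31814551-32884029, minus strand), a neuregulin read by Erbb3 and Erbb4, was highest in basal cells in 17 of 17 libraries. Adult basal cells had 359 CPM in A10, 25.2 CPM in P7, 18.0 CPM in D12, 111 CPM in C57BL/6 and 243 CPM in SWISS, so the adult libraries spread widely. Pregnancy lay at 398 and 487 CPM at day 12.5 and at 344 and 294 CPM at day 18.5, and lactation at 268 and 338 CPM. The A10 library overlapped the pregnancy libraries, and basal Nrg1 did not pass the test (134 ± 195 against 380 ± 82.5 CPM, log2 fold change 1.38, SE 0.90, adjusted p = 0.468). The ML level of Nrg1 was at or below what free basal RNA could carry in 12 of 17 libraries, and the LP/alveolar level in 7.

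Hbegf (ENSMUSG00000024486), a heparin-binding ligand of Egfr and Erbb4, was highest in LP/alveolar cells in 15 of 17 libraries, the exceptions being E18.5 (basal, 155 CPM) and pre-puberty (ML, 62.4 CPM). The adult LP/alveolar level was close in all libraries, at 290, 260 and 263 CPM in FVB/NJ, 265 CPM in C57BL/6 and 270 CPM in SWISS. In pregnancy it was 101, 93.8, 102 and 125 CPM, with no overlap with the adult, and the fall was called (log2 fold change -1.19, SE 0.33, adjusted p = 0.0268). The call was lost without A10, H, G, F4 or B4 (adjusted p up to 0.119 over the left-out libraries). Lactation had 100 and 219 CPM (log2 fold change -0.31, adjusted p = 0.596). In basal cells Hbegf was 132 ± 38.8 CPM in the FVB/NJ adult and 35.0 ± 15.6 CPM in pregnancy (log2 fold change -1.92, adjusted p = 0.0484), a call that leaving out any of 8 libraries ended, with P7 the exception (adjusted p up to 0.201). The lactation library D6 had 153 CPM in its ML class, where the summed epidermis markers were 9072 CPM against at most 118 CPM in any other ML class, and their part in that value was not tested.

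Tgfa (ENSMUSG00000029999, chr6:86195223-86275719), an Egfr ligand, had no constant lineage: it was highest in basal cells in 9 libraries and in ML cells in 8. Adult basal cells had 28.3, 11.4 and 5.90 CPM in FVB/NJ, 15 CPM in C57BL/6 and 13.5 CPM in SWISS. In LP/alveolar cells it was 5.09, 1.30 and 4.32 CPM in the FVB/NJ adult, where 1.30 CPM in P7 rests on 3 counts, and 2.41, 1.84, 0.695 and 0.382 CPM in pregnancy. The LP/alveolar fall was called in pregnancy (log2 fold change -1.71, SE 0.50, adjusted p = 0.0351) and in lactation (log2 fold change -2.39, SE 0.70, adjusted p = 0.0307). The pregnancy call was lost without A10, D12, H, G, F4 or B4 and the lactation call without A10, H, G, F11 or D6 (adjusted p up to 0.144 in both). The LP/alveolar Tgfa count was at or below what free ML RNA could carry in B4, F11 and D6, so the lactation values are not read as expression of that class. The pregnancy call was also lost with the marker gate (0.0546) and the lactation call with 1000 or more genes per cell (0.0596).

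Ereg (ENSMUSG00000029377, chr5:91074622-91093646), the epiregulin gene, was scarce and was highest in basal cells in 15 of the 16 libraries with an epithelial count. The exception was the TEB library (7 counts, in ML cells), F11 had no count in these classes, and pre-puberty, P7, D6 and post-involution had 1 basal count each. The adult basal level was 6.36 CPM in A10, 0.382 CPM in P7 (1 count), 0.902 CPM in D12, 7.47 CPM in C57BL/6 and 24.9 CPM in SWISS. Pregnancy had 4.34, 5.92, 4.8 and 3.62 CPM, inside the adult range (log2 fold change 0.60, adjusted p = 0.710). Areg, Ereg and the pathway ligands Epgn and Btc lie in 1 stretch of 376 kb on chromosome 5. Ereg was highest in basal cells in the 5 adult libraries, and Areg, 46.0 kb away, in ML cells. Epgn was also highest in ML cells in each adult library (19.6 to 37.7 CPM), and Btc was luminal, at 11.3 to 38.3 CPM in ML, 6.06 to 17.5 CPM in LP/alveolar and 0 to 1.29 CPM in basal cells.

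Egf (ENSMUSG00000028017, chr3:129677565-129755316, minus strand) was near absent until late pregnancy. Adult LP/alveolar cells had 0.0621 CPM in A10, 0 in P7, 0.640 CPM in D12, 0.310 CPM in C57BL/6 and 0.309 CPM in SWISS, all from 6 counts or fewer. The level was 0.318 and 0.671 CPM at day 12.5 of pregnancy, 2.43 and 5.13 CPM at day 18.5, and 54.1 and 109 CPM in lactation. Lactation thus stood above every other library, and the rise was called (log2 fold change 8.91, SE 0.78, adjusted p = 0.000107). With 1 library left out the log2 fold change ran from 8.02 to 10.7. As a ratio of pooled counts, 2151 against 5, lactation was 448 times the FVB/NJ adult (95% counting interval 192 to 1380). The pregnancy rise (log2 fold change 2.73, adjusted p = 0.0392) was lost when any of A10, P7, H, G, B4 and D6 was left out (highest adjusted p 0.178) and with 1000 or more genes per cell (0.0680). The rise from day 12.5 to day 18.5 missed the threshold (log2 difference 3.04, adjusted p = 0.0677), and 1% of all genes were called in that contrast. In lactation, basal cells had 14.4 and 3.93 CPM of Egf and ML cells 14.7 and 17.3 CPM, each below the LP/alveolar level of the same library. Milk genes also took 41.8% of the basal and 27.9% of the ML UMIs in F11, and 9.60% and 27.6% in D6. Free LP/alveolar RNA, reckoned from the LP/alveolar markers as above, could carry up to 10.0 of the 15 basal counts in F11 and 3.61 of 4 in D6, and 4.68 of the 9 ML counts in F11 and 4.86 of 8 in D6. Both differences from the adult were called (basal log2 fold change 7.15, adjusted p = 0.00323; ML log2 fold change 6.39, adjusted p = 0.00188), the basal one lost without F11 (adjusted p = 0.0729) or with 1000 or more genes per cell (0.0832) and the ML one without D6 (adjusted p = 0.0576).

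**Figure D2:**
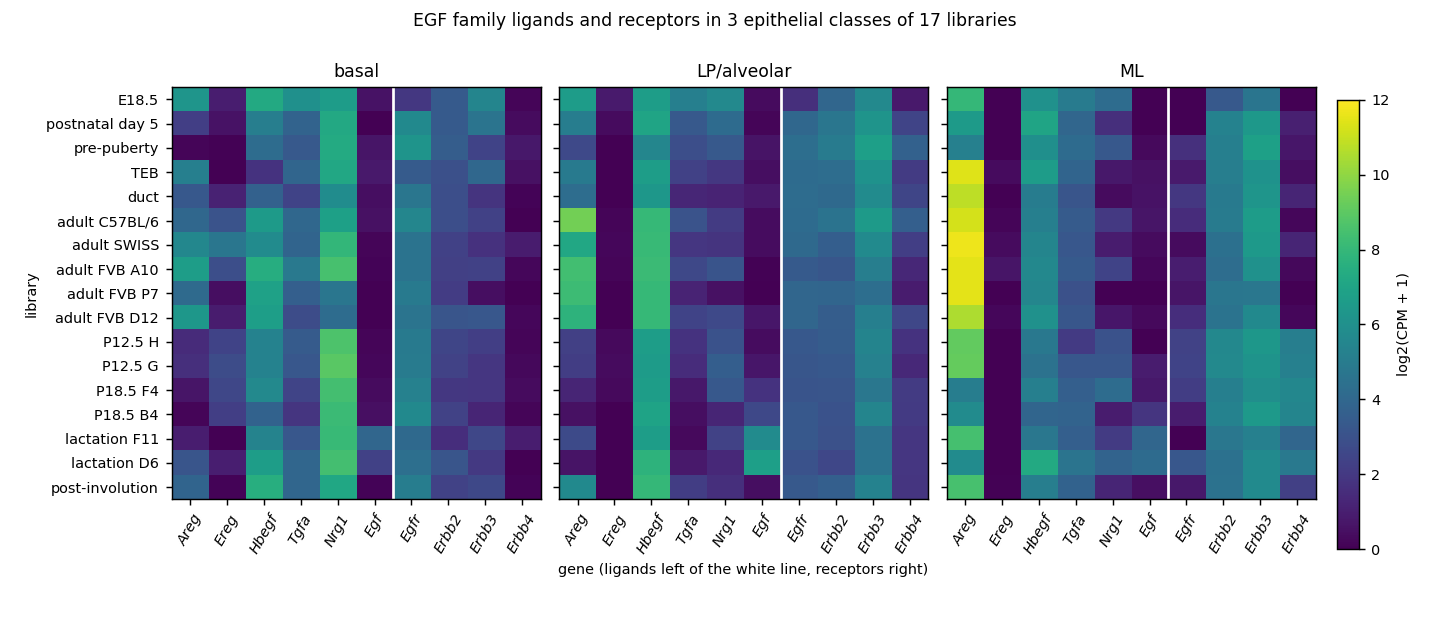
Heat maps of the 10 members (columns, ligands left of the white line and receptors right) in the 17 mammary libraries (rows), 1 panel for each of the basal, LP/alveolar and ML classes, colored by log2(CPM + 1) outside the milk genes. Areg stands out in ML cells from puberty to the adult, Nrg1 in basal cells of every library, Egf in LP/alveolar cells of lactation at 54.1 and 109 CPM, and Erbb4 in ML cells of pregnancy.

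On the receptor side, Egfr (ENSMUSG00000020122, chr11:16752203-16918158) was highest in basal cells in 16 of 17 libraries and was scarce in ML cells. Adult basal cells had 22.6, 29.4 and 23.5 CPM in FVB/NJ, 45.2 CPM in C57BL/6 and 23.0 CPM in SWISS, and adult ML cells 0.973, 0.578, 1.94, 1.83 and 0.288 CPM in the same order. The TEB library was the exception, with 10.0 CPM in basal and 17 CPM in LP/alveolar cells. In pregnancy, basal cells had 29.7, 30.7, 37.8 and 51.2 CPM, all above the 3 FVB/NJ adults, and LP/alveolar cells 8.75, 8.37, 7.73 and 9.0 CPM, all below them (9.43 to 14.7 CPM). Neither change passed the test by itself (basal log2 fold change 0.58, adjusted p = 0.228; LP/alveolar log2 fold change -0.39, adjusted p = 0.225).

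Erbb2 (ENSMUSG00000062312, chr11:98412470-98437716) and Erbb3 (ENSMUSG00000018166, chr10:128567523-128589652, minus strand) were luminal. Erbb2 was highest in ML cells in 16 of 17 libraries, at 18.2, 24.9 and 22.7 CPM in the FVB/NJ adult, 30.8 CPM in C57BL/6 and 20.8 CPM in SWISS. In pregnancy its ML level was 48.1, 49.7, 35.7 and 39.1 CPM, above all 5 adults, but the change missed the threshold (log2 fold change 0.79, SE 0.27, adjusted p = 0.0743). Erbb3 was highest in ML cells in 15 libraries, at 65.7, 26.3, 50.6, 98.1 and 85.7 CPM in the adults, and second in LP/alveolar cells, at 34.4, 19.0, 35.5, 91.7 and 52.1 CPM. It was not called in any class in pregnancy (ML log2 fold change 0.38, adjusted p = 0.555) or lactation (ML log2 fold change -0.21, adjusted p = 0.876). The class that held most Areg thus held little Egfr and much Erbb2 and Erbb3.

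Erbb4 (ENSMUSG00000062209, chr1:68032186-69108059, minus strand), a neuregulin and Hbegf receptor, was highest in different classes with stage. In the adult it was an LP/alveolar transcript, at 1.55, 0.866 and 4.8 CPM in FVB/NJ, 11.3 CPM in C57BL/6 and 3.71 CPM in SWISS, and adult ML cells had 0.195, 0, 0.144, 0.145 and 1.33 CPM. In pregnancy ML cells had 33.8, 36.0, 46.3 and 42.5 CPM, from 33, 42, 65 and 49 counts, while LP/alveolar cells had 2.39, 1.62, 3.21 and 3.16 CPM. ML cells were few, so LP/alveolar cells still held more of the Erbb4 UMIs of each pregnancy library, 68.2%, 43.0%, 53.5% and 51.3%, against 25%, 39.3%, 41.9% and 43.4% in ML cells. ML cells of lactation had 14.7 and 28 CPM and the post-involution library 3.76 CPM. The ML groups did not overlap, and the ML level in all pregnancy libraries was above the LP/alveolar level of any of the 17 libraries, which reached 12.3 CPM at most.

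The ML rise of Erbb4 was called in pregnancy (log2 fold change 7.52, SE 0.52, adjusted p = 2.89e-05) and in lactation (6.79, SE 0.59, adjusted p = 9.40e-05), and no library left out ended either call. These fitted folds depend on the prior count, since 6 counts were seen in the adult. As a ratio of pooled counts, pregnancy was 254 times the FVB/NJ adult (189 against 6 counts, 95% counting interval 115 to 701) and lactation 129 times (22 counts, interval 50.9 to 390). With cells thinned to 1000 UMIs, 3.91% to 5.74% of pregnancy ML cells had an Erbb4 UMI, against 0.183% to 0.401% of the LP/alveolar cells of the same libraries and 0 to 0.0351% of adult ML cells. Unthinned, the pregnancy ML shares were 14.9% to 23.3%.

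**Figure D3:**
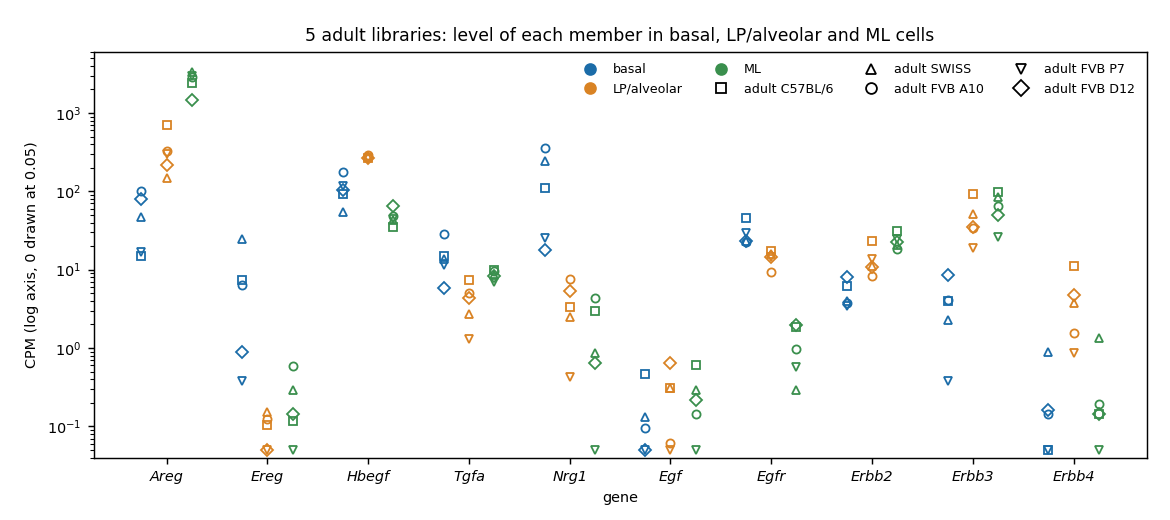
Level of each member in the basal, LP/alveolar and ML classes of the 5 adult libraries (y axis, CPM outside the milk genes on a logarithmic scale, 0 drawn at 0.05), with the genes on the x axis, colors for the classes and a marker shape for each library. Areg lies at 1482 to 3293 CPM in ML cells, Nrg1 lies higher in basal than in luminal cells of each library, and Egfr lies at 0.288 to 1.94 CPM in ML cells.

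Which lineage holds each member in the adult was tested over the 5 adult libraries, with library as a covariate. Of all genes tested, 49.3% were called between basal and LP/alveolar cells, 40.5% between ML and LP/alveolar cells and 62.9% between ML and basal cells. Of the 10 members, 8 could be tested, Ereg and Egf being too low, and 8, 6 and 6 of them were called. Areg was higher in ML than in LP/alveolar cells (log2 fold change 2.94, SE 0.54, adjusted p = 0.00122) and than in basal cells (5.74, SE 0.62, adjusted p = 7.12e-06). Nrg1 was lower in ML than in basal cells (log2 fold change -6.22, adjusted p = 6.21e-06), and Hbegf was lower in ML than in LP/alveolar cells (-2.59, adjusted p = 3.28e-06).

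Among the receptors, Egfr was lower in ML than in LP/alveolar cells (log2 fold change -3.74, adjusted p = 1.14e-05), and Erbb2 was higher in ML than in both basal (2.18, adjusted p = 1.48e-06) and LP/alveolar cells (0.80, adjusted p = 0.00388). Erbb3 was higher in ML than in basal cells (4.07, adjusted p = 1.86e-06) and was not called between ML and LP/alveolar cells (0.50, adjusted p = 0.219). Erbb4 was lower in ML than in LP/alveolar cells (-3.92, adjusted p = 0.00124). A called difference that leaving out a library ended was Egfr between basal and LP/alveolar cells (0.91, adjusted p = 0.0205), which was lost without A10, P7 or the C57BL/6 library (up to 0.0990) or with no library term (0.0913). Another was Tgfa, higher in ML than in LP/alveolar cells (1.04, adjusted p = 0.0188), which was lost without SWISS (0.0759) or with no library term (0.202). The Erbb2 difference between ML and LP/alveolar cells was lost only with no library term (0.0844).

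Over the 9 FVB/NJ libraries of adult, pregnancy and lactation, the members called in pregnancy were 2 of 9 tested in basal cells (Areg and Hbegf, both lower), where 4.25% of all genes were called. In LP/alveolar cells 4 of 9 were called (Areg, Hbegf and Tgfa lower, Egf higher), against 22.7% of all genes, and in ML cells 2 of 8 (Areg lower, Erbb4 higher), against 14.3%. In lactation the called members were Areg (lower) and Egf (higher) in basal cells, where 4.1% of all genes were called, Areg and Tgfa (lower) and Egf (higher) in LP/alveolar cells, at 28%, and Areg (lower), Egf and Erbb4 (higher) in ML cells, at 4.2%. The median log2 fold change of the members in pregnancy was -0.38 (basal), -0.14 (LP/alveolar) and 0.58 (ML), beside -0.081, 0.013 and -0.099 over all genes tested. All called ligands except Egf were lower, and the 1 called receptor was higher. These counts include the Areg calls in basal and LP/alveolar cells and the LP/alveolar Tgfa call of lactation. None of these is read as a change of expression there. Free LP/alveolar RNA could also carry part of the basal and ML Egf counts of lactation, as given above. Basal Hbegf in pregnancy was lost when any of 8 libraries was left out. The basal counts of members are therefore not read as an excess over all genes. Between day 18.5 and day 12.5 edgeR called no member in any class, and 0%, 1% and 0.0555% of all genes in basal, LP/alveolar and ML cells. DESeq2 called no member in basal cells and 1 in each luminal class. It also called more of all genes than edgeR in each class, as given at the end. Its calls are therefore not read as particular to the members. At an unadjusted p under 0.05 in edgeR there were 2 of 9 members in basal cells (Areg and Tgfa), 3 of 9 in LP/alveolar cells (Areg, Tgfa and Egf) and 1 of 8 in ML cells (Areg, 0.000902). Of all genes 8.49%, 16.6% and 7.11% were under that threshold.

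The lactation calls of Areg had higher adjusted p-values than those of pregnancy. LP/alveolar Areg was 5.42 and 0.570 CPM (log2 fold change -6.22, adjusted p = 0.00125), a call that no left-out library ended. Its log2 fold change then ran from -8.54 to -5.35. The ML call (-3.56, adjusted p = 0.0338) was lost when any of A10, H, G, F4, B4 and D6 was left out (highest adjusted p 0.194) and with the marker gate (0.0757), which left 54 of 294 ML cells in F11 and 130 of 204 in D6. The basal call (-3.98, adjusted p = 0.0480) rested on 9 counts in lactation and was lost without any of 8 libraries, P7 being the exception (adjusted p up to 0.298), and under the marker gate or with 1000 or more genes per cell (up to 0.183).

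**Figure D4:**
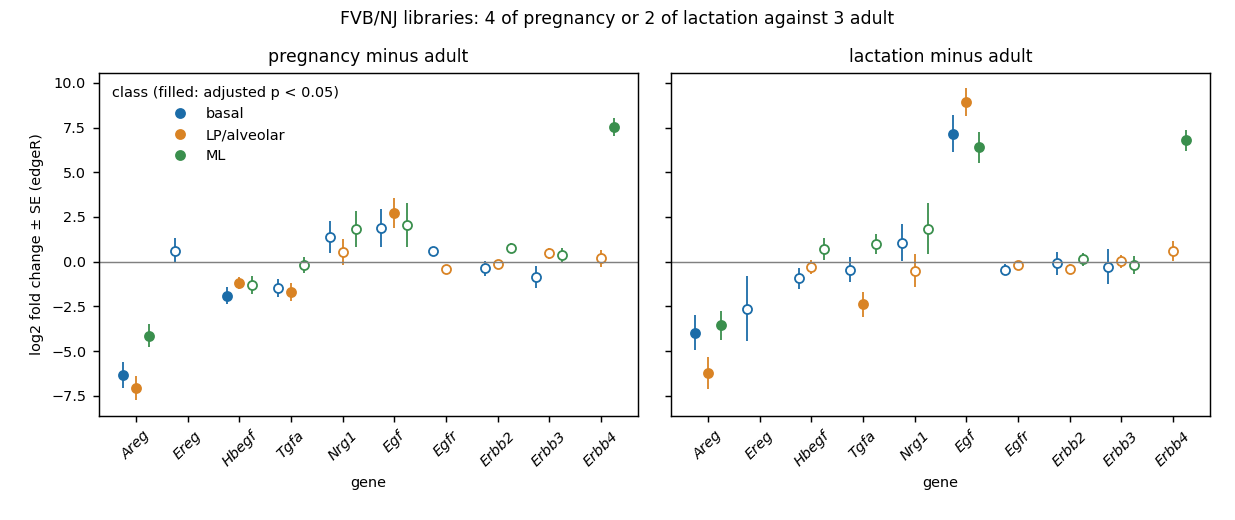
Log2 fold change against the FVB/NJ adult (y axis) of each member (x axis) in pregnancy and in lactation, 1 color per class, with bars of 1 SE and filled points for an adjusted p under 0.05. Areg lies below 0 in every class, Egf in lactation above 6 in every class, and Erbb4 in ML cells at 7.52 in pregnancy and 6.79 in lactation. Free RNA could carry part or all of the basal and LP/alveolar Areg counts, and part of the basal and ML Egf counts of lactation.

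Whether the pregnancy effect itself differed between lineages was tested as an interaction on the same libraries. Of all genes tested, 21.1% were called for basal against LP/alveolar cells, 20.6% for ML against LP/alveolar cells and 17.5% for ML against basal cells, and 1, 3 and 2 of the 10 members. Erbb4 rose by more in ML cells than in LP/alveolar cells (difference of log2 fold changes 7.55, SE 0.57, adjusted p = 1.05e-07) and than in basal cells (7.16, SE 1.17, adjusted p = 0.000359). For Areg the interaction was also called between ML and LP/alveolar cells, with the smaller fall in ML cells (2.97, SE 0.66, adjusted p = 0.00368), but the LP/alveolar counts were within the free RNA ceiling in all 7 libraries, so this is not read as a difference between lineages. It was not called between ML and basal cells (2.02, SE 0.79, adjusted p = 0.0861).

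Erbb2 moved up in ML cells relative to LP/alveolar (0.96, adjusted p = 0.0355) and basal cells (1.11, adjusted p = 0.0262), and Egfr moved up in basal relative to LP/alveolar cells (1.09, adjusted p = 0.0165). These 3 calls were less firm. The first Erbb2 call was lost without A10, P7, H, G, F4 or B4 (adjusted p up to 0.169), the other without D12, H, G, F4 or B4 (up to 0.138), and that of Egfr without H, G or B4 (up to 0.0961). With 1000 or more genes per cell both Erbb2 calls were lost (0.0648 and 0.0848), and with DESeq2 that of Egfr (0.0825).

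Puberty was set beside pregnancy without a test, since TEB and duct are 1 library each. TEB and duct were also clustered in a set of their own, where every cell fell in 1 of the 3 classes. In the pregnancy libraries 2.62% to 4.67% of cells were in unnamed clusters and left out of the classes. An unnamed FVB/NJ cluster had Top2a, a gene of cycling cells, among its top genes. The part of this difference in the values below was not tested. A gene was counted when both pubertal libraries lay 2-fold or more beyond all 4 pregnancy libraries. Areg counts were higher in puberty in all 3 classes, but in basal and LP/alveolar cells of both pubertal libraries they lay below the free RNA ceiling (0.295 to 0.655 of it) and are not read as expression there. The ML level of 1773 CPM in the duct was 3.06 times the highest pregnancy value. Of all genes, 5.74% were higher in puberty by this rule in ML cells, 9.53% in LP/alveolar cells and 4.23% in basal cells. In ML cells Erbb4 was lower in puberty, at 0.356 CPM in the TEB library and 1.36 CPM in the duct, the lowest pregnancy library being 24.8 times the duct, and in basal cells Ereg was lower, at 0 and 1.19 CPM. By the same rule 5.48% of genes were lower in ML, 7.33% in LP/alveolar and 5.02% in basal cells. Basal Nrg1, at 148 CPM in the TEB library and 55.4 CPM in the duct, was below every pregnancy library but just short of the rule, by 1.99-fold. The remaining receptors, Egfr, Erbb2 and Erbb3, met it in no class.

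**Figure D5:**
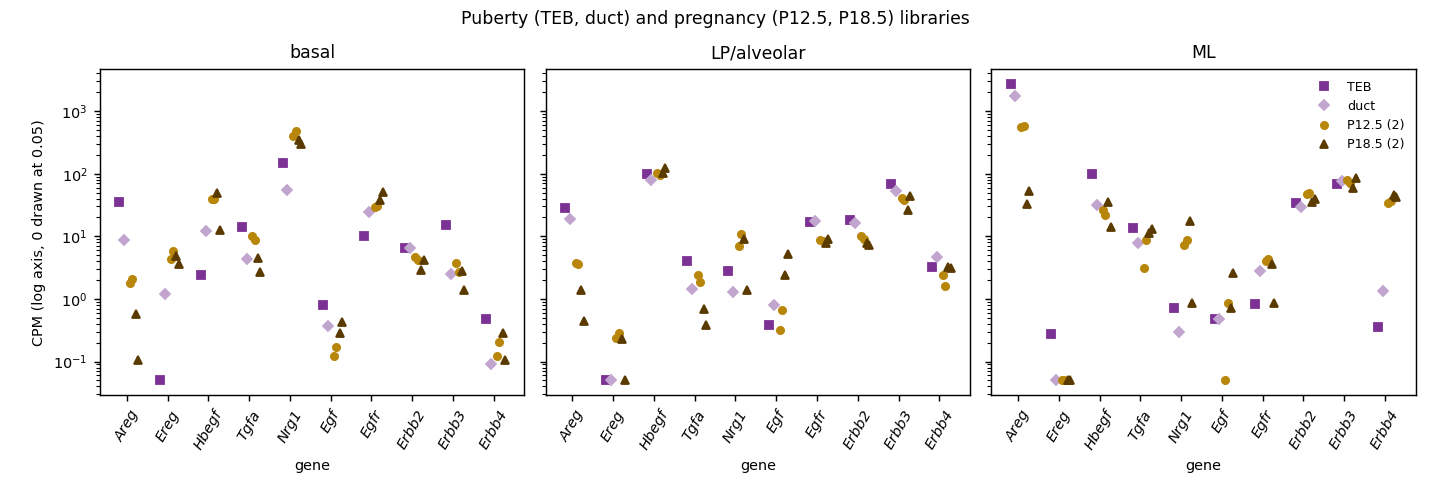
Level of each member (x axis) in the TEB and duct libraries beside the 4 pregnancy libraries, 1 panel per class, in CPM outside the milk genes on a logarithmic scale (y axis, 0 drawn at 0.05). Areg lies higher in puberty in all 3 classes, and Erbb4 in ML cells lies at 0.356 and 1.36 CPM in puberty against 33.8 to 46.3 CPM in pregnancy.

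The TEB and duct libraries were compared by counting error alone, which leaves out the variation between animals. Areg in ML cells was 1.53 times higher in the TEB library (95% interval 1.5 to 1.55). Of 29 values of a member in a class with a count, 12 had an interval above 1 and 6 an interval below 1. The share of all genes with such intervals was not reckoned, so these counts are not read as a result about the members. Basal Nrg1 was 2.66 times higher in the TEB library (2.43 to 2.92), basal Tgfa 3.22 times (2.33 to 4.53), basal Erbb3 6.15 times (4.10 to 9.58) and ML Hbegf 3.07 times (2.74 to 3.46). The 191 TEB counts of basal Erbb3 were 2.59 times what free LP/alveolar RNA could carry, so part of them may be such RNA. Among the lower values in the TEB library were basal Hbegf, at 0.198 of the duct level (0.128 to 0.296), where the 30 TEB counts are fewer than free LP/alveolar RNA could carry (106), and basal Egfr, at 0.403 (0.324 to 0.499). ML Egfr was at 0.295 of the duct level (0.16 to 0.535), with 21 TEB counts where free LP/alveolar RNA could carry 22.7, and ML Erbb4 at 0.262 (0.1 to 0.649), with 9 counts against 14. Basal Ereg had 0 counts in the TEB library and 13 in the duct library, a ratio of at most 0.285.

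A list of 29 further genes of the pathway was followed in the same fits. In pregnancy 1 of 27 tested was called in basal cells, 7 of 28 in LP/alveolar cells (6 lower, 1 higher) and 4 of 24 in ML cells (all lower). Of all genes 4.25%, 22.7% and 14.3% were called in either direction, so the shares called were near the background. The split into higher and lower was not set beside that of all genes. The ligand Btc was lower in LP/alveolar (log2 fold change -2.35, adjusted p = 0.00172) and ML cells (-2.88, adjusted p = 0.0144). In ML cells Nrg4 stood at 4.19, 8.67 and 62.3 CPM in the adults A10, P7 and D12 and at 0 to 1 count a library in pregnancy (log2 fold change -5.98, adjusted p = 0.0112), and Epgn fell by 4.49 on the log2 scale (adjusted p = 0.000596). Both also passed the test in LP/alveolar cells (Nrg4 -4.13, adjusted p = 0.0251, and Epgn -1.55, adjusted p = 0.0310). There the adult Nrg4 counts of 6 in A10, 0 in P7 and 43 in D12 did not exceed what free RNA from ML cells could carry (8.90, 2.94 and 61.4 counts), so the LP/alveolar call on Nrg4 is not read as expression in that class. For Epgn the A10 count was also under that limit (33 against 41.7), and those in P7 and D12 were above it. Among the feedback inhibitors and ERK targets, which dampen or report receptor signaling, 3 of 9 were called in LP/alveolar cells, all lower. Of all genes 22.7% were called there in either direction, and 3 of 9 is not read as an excess. Dusp6 fell by 2.54 on the log2 scale (adjusted p = 0.000371), Spry4 by 2.71 (adjusted p = 0.00271) and Etv4 by 3.94 (adjusted p = 0.000849). Beside 3.17 to 20.6 CPM in basal cells, Etv4 in pregnancy stood at 0.0545 to 0.988 CPM in LP/alveolar cells. What free basal RNA could carry of it was not reckoned. The other 6 (Spry1, Spry2, Spred1, Spred2, Dusp4 and Etv5) were not called, with log2 fold changes from -0.79 to 0.81. Cblb, a ubiquitin ligase that takes receptors from the surface, was higher in LP/alveolar cells (1.06, adjusted p = 0.0347). Dusp6 was also lower in ML cells (-1.35, adjusted p = 0.0389) and Etv4 in basal cells (-2.39, adjusted p = 0.00863). In lactation 1 of 27 was called among basal, 10 of 28 among LP/alveolar and 1 of 24 among ML cells, against 4.1%, 28% and 4.2% of all genes, with Dusp6 lower in LP/alveolar cells by 4.29 (adjusted p = 0.000149).

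Of the genes for shedding, the protease Adam17 and the inactive rhomboids Rhbdf1 and Rhbdf2, which help Adam17 mature, none was called against the adult in either stage, nor was any of the adaptors Shc1, Grb2, Gab1, Sos1 and Ptpn11, with log2 fold changes between -1.32 (basal Rhbdf1, lactation, adjusted p = 0.0880) and 1.02 (LP/alveolar Sos1, lactation, adjusted p = 0.114). The protease Adam10 was called once, higher in LP/alveolar cells of lactation (1.28, adjusted p = 0.0219). In the puberty comparison, which carries no test, 6 of 28 pathway genes were past the rule as higher in LP/alveolar cells than in pregnancy (Btc, Nrg2, Spry4, Dusp6, Etv4 and Etv5) and 2 as lower (Epgn and Errfi1), against 9.53% and 7.33% of all genes. With a 3-fold rule Nrg2 and Errfi1 were no longer past it. With plain CPM Errfi1 was not, while Lrig3 and Spred1 were also higher, beside 14.9% of all genes. In ML cells Btc and Nrg4 were higher and Cblb lower, of which Nrg4 alone passed the 3-fold rule, and Cblb was not past the 2-fold rule with the marker gate. In basal cells Etv4 was higher and Errfi1 lower, under the 3-fold rule and plain CPM too. Errfi1, an inhibitor of Egfr kinase, was at 36.0 and 123 CPM in basal cells of the TEB and duct libraries and at 1351 to 2658 CPM in pregnancy.

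Across the 51 library-by-class levels, the genes whose log levels followed each member most closely among 9918 genes were R3hdml (Pearson r = 0.87), Cdo1 and Gipc2 for Areg, Snai2 (0.95), Col4a2 and Sobp for Nrg1, and Wnk4 (0.86), Itpr2 and B4galt5 for Erbb4. For Hbegf they were Gch1 (0.74), Rnf19b and Zc3h12a and for Tgfa Ahi1 (0.80), Ttc3 and Dennd2c, while Ereg and Egf were too low to be ranked. For the other receptors they were Ttc28 (0.91), Tspan2 and Boc for Egfr, Mcf2l (0.93), Cry2 and Itih5 for Erbb2, and Notch3 (0.93), Cecr2 and Tuft1 for Erbb3. These points share libraries and depth, so the values are a description. Outside the epithelium, fibroblast clusters held Egfr at 16.0 CPM (E18.5) to 136 CPM (F4, from 8 counts in 25 cells), and Schwann clusters held Erbb3 at 171 CPM at E18.5, 253 CPM on postnatal day 5, 348 CPM at pre-puberty and 264 CPM in the C57BL/6 adult.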

How the data were processed

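Each deposited table holds UMI counts per gene and cell that the authors made with Cell Ranger, version 3.0.2 for 16 of 18 libraries and 3.1.0 for postnatal day 5 and pre-puberty per the file headers (the submitters' notes name 3.1.0). Members and lists were chosen with earlier results of these data known. Cells with 500 or more genes and within the study's quality limits were kept. The libraries were integrated and clustered with Seurat 5.3.0 on up to 2000 variable genes in 4 sets, without the members, 29 pathway genes, milk, cell cycle, mitochondrial and ribosomal genes. Clusters were named from fixed markers (3 or more needed). No doublet caller was run; a marker gate on cells was an alternative. Counts were summed per library and class (20 or more cells) and tested with edgeR 4.0.16 (quasi-likelihood, TMM, filterByExpr, Benjamini-Hochberg over all genes, called under an adjusted p of 0.05) in R 4.3.3. DESeq2 1.42.0 and other alternatives are described at the end. The 3 epithelial classes of a library share 1 pool of animals; the labels give no further origin of replicates, so p-values measure the spread between libraries. Intervals are exact 95% Poisson intervals and cover counting error only. All 10 members were named, with the pathway list described by its calls and the 3 most similar genes for each member. The edgeR steps were tested on simulated data. Gene coordinates are those of GENCODE vM21 on GRCm38, matched by Ensembl identifier.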

Additional observations from a re-analysis of the deposited data

Results flagged for a closer look

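In 6 tests the pregnancy effect on a member differed between 2 classes of the same libraries, as the difference of log2 fold changes (edgeR). Of all genes, 21.1% were called for basal minus LP/alveolar, 20.6% for ML minus LP/alveolar and 17.5% for ML minus basal cells. The number of members called is therefore not read as particular to them. The values were 7.55 for Erbb4 in ML minus LP/alveolar cells, 7.16 for Erbb4 in ML minus basal cells, 2.97 for Areg in ML minus LP/alveolar cells (where the LP/alveolar counts are within the free RNA ceiling), 0.96 for Erbb2 in ML minus LP/alveolar cells, 1.11 for Erbb2 in ML minus basal cells and 1.09 for Egfr in basal minus LP/alveolar cells. The Erbb2 and Egfr calls were each lost when any of several libraries was left out, as given above.

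The E18.5 skin library, used in no comparison, held 9 of the 10 members above the limit that a count of 0 allows. Over all its kept cells the levels were 63.6 CPM for Hbegf, 12.1 CPM for Egfr, 11.7 CPM for Erbb2, 7.88 CPM for Erbb3, 3.99 CPM for Areg, 3.12 CPM for Nrg1, 1.29 CPM for Tgfa, 0.655 CPM for Egf and 0.119 CPM for Ereg. Erbb4 had 2 counts there.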

How the results depend on the processing

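Of 42 called results on single members, 27 kept their call and direction under every alternative run, and none of the 569 alternative values reversed; 77 lost the call, 64 of them by leaving out 1 library. The number of called members changed by over 1.5 times as follows. Without a filter on low counts it was 4 instead of 2 in basal and in ML cells of pregnancy, 1, 3 and 1 instead of 0 between day 18.5 and day 12.5 (basal, LP/alveolar and ML), and 4, 5 and 4 instead of 1, 3 and 2 in the differences between classes (basal minus LP/alveolar, ML minus LP/alveolar, ML minus basal). For these differences no share of all genes without the filter is given, so the rise is not read as particular to the members. With DESeq2 the number of called members was 1 in the LP/alveolar and ML day contrasts and 0 for basal minus LP/alveolar. With the marker gate it was 1 in basal and 1 in ML cells of lactation, and with 1000 or more genes per cell 0 in basal lactation and 2 for basal minus LP/alveolar. With totals outside the milk genes and no TMM it was 5 for ML minus LP/alveolar and 4 for ML minus basal. The counts of members under these other settings have no share of all genes beside them. None is therefore read as a result about the members. With plain CPM, 2 members (Areg and Egfr) were higher in puberty in LP/alveolar cells. There 14.9% of all genes were higher, against 9.53% in the main setting.

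Leaving out 1 library gave 1 to 3 members in basal, 1 to 4 in LP/alveolar and 2 to 3 in ML cells of pregnancy. In lactation it gave 0 to 2, 2 to 3 and 1 to 3, and in the luminal day contrasts 0 to 1 (0 in basal cells). Between adult classes it gave 7 to 9, 5 to 6 and 6 to 8 members, and 5137 to 6179, 3926 to 4858 and 7054 to 8132 of all genes. In the differences between classes it gave 0 to 4, 2 to 5 and 1 to 3 members. These ranges are not read as particular to the members. Over all genes, 561 were called in basal pregnancy, against 1051 with DESeq2, 1491 without the filter and 71 to 963 with 1 library left out. The corresponding counts were 541, 960, 1390 and 217 to 872 in basal lactation, 378, 576, 1028 and 112 to 656 in ML lactation (240 with the marker gate, 218 with 1000 or more genes per cell), 139, 854, 1033 and 0 to 1138 in the LP/alveolar day contrast 5, 69, 126 and 0 to 91 in the ML one and 0, 164, 349 and 0 to 77 in the basal one. In ML pregnancy 1285 became 2163 without the filter and 474 to 1702 with 1 library left out, which also gave 1344 to 4066 in place of 3150 in LP/alveolar pregnancy and 1551 to 5222 in place of 3883 in LP/alveolar lactation. With no library term the adult class tests called 3166, 1736 and 4580 genes in place of 6577, 5409 and 8397. With 1 library left out the differences between classes called 1813 to 3563, 1583 to 3737 and 1318 to 2945 genes in place of 3116, 3032 and 2575. With totals outside the milk genes and no TMM the split of higher and lower calls moved. It went from 1467 and 1683 to 1122 and 2044 in LP/alveolar pregnancy and from 622 and 663 to 842 and 424 in ML pregnancy. In LP/alveolar lactation it went from 2049 and 1834 to 1371 and 3116. For ML minus basal it went from 1143 and 1432 to 1978 and 686. For ML minus LP/alveolar it went from 1388 and 1644 to 2158 and 643, where the median of all genes moved from -0.16 to 0.16. The cause was not tested. No paired analysis was possible because the deposited labels name libraries by code, and the replicate numbers in the study's own list mark separate pools of mice tied to no shared litter or batch. The study's methods name some libraries as handled at the same time, among them an adult FVB library with the post-involution one, but name none of pregnancy or lactation, so handling and stage cannot be told apart.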
